A study of Mus musculus with 15 samples.

Results

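Fatty acid elongases and desaturases are the enzymes that lengthen fatty acids and place double bonds in them. The 9 genes described here, 5 elongases (*Elovl1*, *Elovl2*, *Elovl3*, *Elovl5* and *Elovl6*), 2 front-end desaturases (*Fads1* and *Fads2*) and 2 stearoyl-CoA desaturases (*Scd1* and *Scd2*), were taken by their symbols from a table of 55573 genes. The rule itself uses no measured value, but the 9 genes were chosen with earlier results of these data known. All 9 passed the filter on low counts that left 17655 genes. Liver RNA was sequenced from 15 mice that were 8 weeks old, with 1 library per mouse. The groups were 3 wild-type females (FWT), 5 females homozygous for an *Esr1* knockout (FKO), 3 wild-type males (MWT) and 4 homozygous knockout males (MKO). All carry the strain label B6N(Cg)-Esr1tm4.2Ksk/J, and wild-type mice were littermates of the knockouts. *Esr1* encodes estrogen receptor alpha. Its exon 3 is deleted in every tissue of these mice and not in liver alone, and the paper describes raised testosterone in both sexes of this mutant, so loss of the receptor in liver and a changed hormone supply cannot be told apart. In bulk liver, fewer cells of a type and less RNA per cell cannot be told apart either.

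Elongation takes place in the membrane of the endoplasmic reticulum. An elongase performs the first, rate-limiting step, a ketoacyl-CoA reductase (*Hsd17b12*), a dehydratase (*Hacd1* to *Hacd4*) and an enoyl-CoA reductase (*Tecr*) complete the cycle, and cytochrome b5 passes electrons to the desaturases. In liver, ELOVL6 and SCD1 follow fatty acid synthase in making stearate, oleate and related monounsaturated fatty acids. FADS2, ELOVL5, FADS1 and ELOVL2 act along the route that turns linoleic and alpha-linolenic acid into arachidonic and docosahexaenoic acid. ELOVL1 and ELOVL3 lengthen saturated and monounsaturated fatty acids to very long chains, and *Elovl3* is a known male-biased gene of mouse liver.

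Both families carry histidine boxes, short motifs that in the desaturases hold the iron of the active site. The stretches that follow are printed to show how close the members are to each other, which bears on how their reads can be counted. Each has 51 bases of coding sequence read from GENCODE M21 transcripts (GRCm38), on the strand of the gene, with the 15 bases of a histidine box in capitals.
Elovl1, chr4:118431436-118431486, plus strand, exon 6: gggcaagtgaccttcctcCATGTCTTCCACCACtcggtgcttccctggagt
Elovl2, chr13:41189983-41190033, minus strand, exon 5: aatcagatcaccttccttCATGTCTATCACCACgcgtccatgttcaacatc
Elovl5, chr9:77976832-77976882, plus strand, exon 5: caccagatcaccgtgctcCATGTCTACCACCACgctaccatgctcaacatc
Elovl3, chr19:46134404-46134454, plus strand, exon 4: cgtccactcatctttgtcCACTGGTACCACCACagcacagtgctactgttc
Elovl6, chr3:129633089-129633139, plus strand, exon 5: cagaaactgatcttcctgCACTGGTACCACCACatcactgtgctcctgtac
Fads1, chr19:10186767-10186817, plus strand, exon 5: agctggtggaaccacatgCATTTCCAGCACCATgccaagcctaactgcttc
Fads2, chr19:10082628-10082678, minus strand, exon 5: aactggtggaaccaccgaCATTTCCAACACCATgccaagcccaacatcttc
Scd1, chr19:44401839-44401889, minus strand, exon 4: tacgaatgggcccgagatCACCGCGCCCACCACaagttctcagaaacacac
Scd2, chr19:44299618-44299668, plus strand, exon 4: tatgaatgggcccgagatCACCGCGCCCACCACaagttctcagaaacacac
The box of *Elovl3* and that of *Elovl6* were identical in all 15 bases. *Elovl1*, *Elovl2* and *Elovl5* shared 13 or 14 of 15 bases with each other and 10 or 11 with *Elovl3* and *Elovl6*. Over the whole coding sequence, the elongases were 62.8% to 68.1% identical in pairs, with *Elovl2* and *Elovl5* the closest, and *Fads1* and *Fads2* were 69.3% identical. *Scd1* and *Scd2* were 90.7% identical, and *Scd1* and *Scd3*, of the same cluster on chromosome 19, were 91.5% identical. How reads that map to several places were treated is not given in the sources used here, so the counts of *Scd1* and *Scd2* carry that uncertainty. Exons of other genes overlapped 10 to 61 bases of the exons of *Elovl1*, *Elovl3*, *Elovl6* and *Scd2* and none of the other 5 genes.

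The total count per library was between 27799061 and 78624766. Counts are given as CPM (the edgeR unit of counts relative to a library total scaled by TMM, which removes differences in composition), and the TMM factors lay between 0.957 and 1.04. *Esr1* fell in knockouts of both sexes (log2 fold change -2.64 in females, edgeR adjusted p = 4.47e-06, and -1.62 in males, edgeR adjusted p = 0.00445). The 5 hepatocyte markers (*Alb*, *Ttr*, *Apoa1*, *Tat* and *Cps1*) took between 74054 and 107330 CPM in sum in every library. The sum lay between 100550 and 107330 CPM in FWT, 81081 and 105901 in FKO, 74054 and 75815 in MWT and 86074 and 95789 in MKO. Most of it was *Alb*, at a mean of 86414 CPM in FWT, 74513 in FKO, 54550 in MWT and 72344 in MKO. *Alb* and *Tat* had higher means in FWT than in MWT, and *Ttr*, *Apoa1* and *Cps1* had lower ones. None of the markers was called between knockout and wild type in either sex. Between wild types 1 was called (higher in FWT), and between MKO and FWT 1 was called (higher in MKO). In each group the mice differed from each other in part together. FKO 1 was the lowest of the 5 FKO mice for 6 of the 9 genes, and FKO 3 was the highest for 7, and several values are also given without FKO 1.

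A gene was called where the adjusted p was under 0.05 in edgeR's quasi-likelihood F test, fitted to all 15 libraries, with Benjamini-Hochberg adjustment over the 17655 genes. All adjusted p values below are from this test unless another is named. Each replicate is a separate mouse. In males, 2 of the 9 genes were called and both rose in the knockout (*Elovl5* and *Scd1*), where 1.42% of all tested genes were called. In females, 1 of 9 was called and rose (*Elovl3*), where 5.71% of all tested genes were called. The estimates pointed up for 8 of 9 genes in males (median log2 fold change 0.557, beside -0.00114 over all tested genes). In females they pointed up for 4 and down for 5 (median -0.0157, beside -0.00134). In males, 7 of the 9 genes had groups that did not overlap, all 7 with every MKO mouse above every MWT mouse, where 15.9% of all tested genes had groups that did not overlap. In females this held for *Elovl3* alone, where 15.6% of all tested genes did not overlap.

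**Figure D1:**
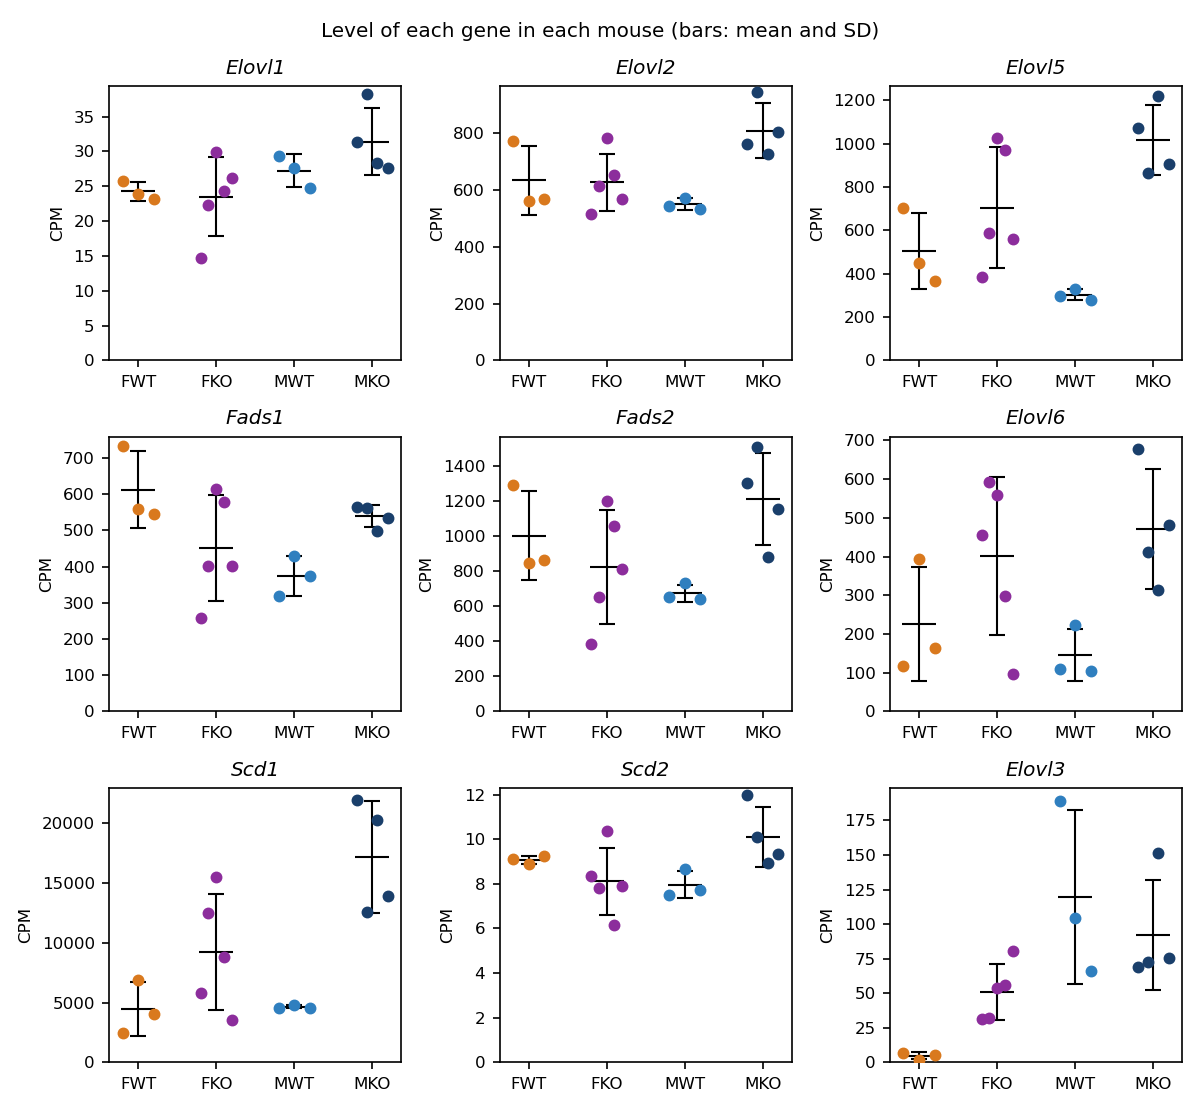
Level of each of the 9 genes in each mouse, in CPM on a linear axis from 0 (points are mice in the order of their numbers, with horizontal and vertical bars for mean and SD). MKO mice lie above all MWT mice for Elovl2, Elovl5, Fads1, Fads2, Elovl6, Scd1 and Scd2, and FWT mice lie at or below 6.66 CPM for Elovl3.

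**Figure D2:**
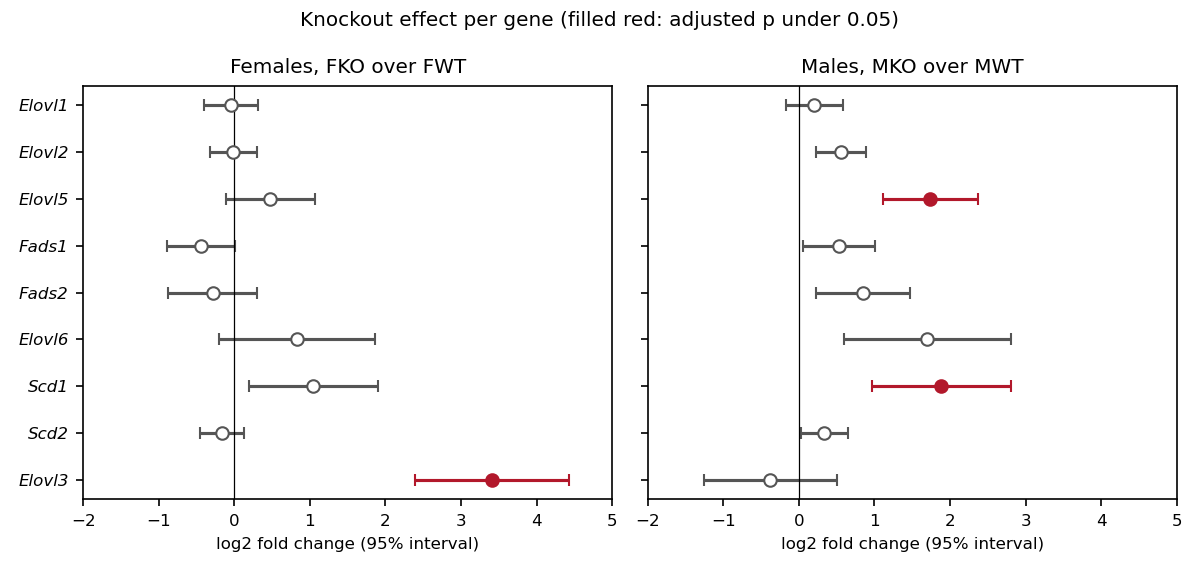
Log2 fold change of each gene with its 95% interval from edgeR, in females (FKO over FWT) and males (MKO over MWT). Filled red points have an adjusted p under 0.05, which holds for Elovl3 in females and for Elovl5 and Scd1 in males.

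Levels of different genes can be compared only per length. *Scd1* was the most abundant of the 9 by CPM per kilobase of exon in every group, at 914.6 ± 459.9 in FWT (SD, n = 3), 1891 ± 997 in FKO (n = 5), 950.4 ± 25.4 in MWT (n = 3) and 3513 ± 953 in MKO (n = 4). *Fads2* came next, between 205 (MWT) and 368 (MKO) CPM per kilobase in the group means. *Elovl2*, *Elovl5* and *Fads1* followed with means between 77.7 and 288 CPM per kilobase. *Elovl6* lay between 22.6 and 73.2, *Elovl3* between 2.40 and 60.7, *Elovl1* between 8.62 and 11.5 and *Scd2* between 1.46 and 1.85. Of the 2 stearoyl-CoA desaturases, *Scd1* was 553 ± 287 times the level of *Scd2* per kilobase in FWT, 1269 ± 587 times in FKO, 654 ± 33.6 times in MWT and 1909 ± 497 times in MKO. In raw terms, *Scd1* took between 0.253% and 2.19% of all counts of a library. Among the 5 elongases, *Elovl2* and *Elovl5* held most of the summed CPM per kilobase. *Elovl5* held 40.3% ± 5.67 in FWT (SD, n = 3), 42.8% ± 7.71 in FKO (n = 5), 27.2% ± 2.32 in MWT (n = 3) and 46.0% ± 4.66 in MKO (n = 4). *Elovl3* held 0.695% ± 0.367 in FWT (SD, n = 3), 5.89% ± 2.97 in FKO (n = 5), 18.6% ± 8.13 in MWT (n = 3) and 7.41% ± 2.80 in MKO (n = 4).

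*Scd1* encodes the main stearoyl-CoA desaturase of mouse liver, which makes oleate and palmitoleate. It was at 4591, 4792 and 4565 CPM in the 3 MWT mice and at 21976, 12548, 20327 and 13889 CPM in the 4 MKO mice. The lowest MKO mouse was above the highest MWT mouse, and the MWT mice differed from each other by only 2.67% (coefficient of variation). The log2 fold change was 1.89 (95% interval 0.968 to 2.80, adjusted p = 0.0396), a 3.70-fold rise. In females the values were 2449, 6896 and 4078 CPM in FWT and 5831, 12525, 15548, 8829.7 and 3516 CPM in FKO. These groups overlapped, with FKO 5 below 2 of the FWT mice, and the log2 fold change of 1.05 (95% interval 0.188 to 1.91) was not past the threshold (adjusted p = 0.138). The difference of the effects (females minus males) was -0.84 in log2 units (95% interval -2.03 to 0.358, adjusted p = 0.508), so the sexes were not shown to differ. The call in males was lost when any of 7 mice was left out, with the highest adjusted p of 0.168 without MWT 3. In females *Scd1* passed the threshold without FKO 5 (log2 fold change 1.26, adjusted p = 0.0392).

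*Elovl6* encodes the elongase that turns palmitate into stearate, the substrate of SCD1. It was at 108, 222 and 105 CPM in MWT and at 679, 411, 314 and 480.4 CPM in MKO. Every MKO mouse was above every MWT mouse, but the spread within groups was wide and the log2 fold change of 1.70 (standard error 0.522) was not past the threshold (adjusted p = 0.143). It was past it with no filter on low counts (adjusted p = 0.00989), with only the male groups in the fit (0.0252) and without FKO 5 (0.0468). In females *Elovl6* was at 119, 392 and 163 CPM in FWT and at 456, 592, 558, 299 and 97.6 CPM in FKO, with FKO 5 below all FWT mice. The log2 fold change there was 0.83 (adjusted p = 0.327). FWT 2 and FKO 5, the mice that stand out for *Elovl6* in females, were also the highest FWT mouse and the lowest FKO mouse for *Scd1*.

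*Scd2*, the isoform best known from brain, lay between 6.16 and 12 CPM in all 15 mice. It was at 7.48, 8.65 and 7.74 CPM in MWT and at 12, 10.1, 8.95 and 9.34 CPM in MKO. These groups did not overlap, but the log2 fold change was 0.34 (adjusted p = 0.36). In females it was -0.16 (adjusted p = 0.513). With a coding sequence so close to that of *Scd1*, reads of *Scd1* counted as *Scd2* would move these values, and this was not tested. The coding sequence of *Scd2* has 1077 bases and its exons 5464, and the exons outside the coding sequence were not compared.

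*Elovl5* encodes the elongase that acts on polyunsaturated fatty acids between the steps of FADS2 and FADS1. It was at 299, 331 and 279.7 CPM in MWT and at 1071, 866, 1219 and 905 CPM in MKO. The lowest MKO mouse lay far above the highest MWT mouse. The log2 fold change was 1.74 (95% interval 1.11 to 2.38, adjusted p = 0.00608), a 3.35-fold rise, and it lost its call only without MWT 3 (adjusted p = 0.0504). In females *Elovl5* was at 702, 450.5 and 365 CPM in FWT and at 383, 588, 1026, 969 and 558 CPM in FKO. The female groups overlapped, with a log2 fold change of 0.48 (95% interval -0.106 to 1.06, adjusted p = 0.319). The difference of the effects (females minus males) was -1.26 (95% interval -2.10 to -0.430). It was not past the threshold (adjusted p = 0.140), and it was past it with DESeq2 (adjusted p = 0.0387) and with no filter on low counts (edgeR adjusted p = 0.0456).

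The promoter window of *Elovl5* in RefSeq (GRCm38.p6, chr9:77917115-77917364, plus strand), the 250 bases before its start, is shown because *Elovl5* was the member with the smallest adjusted p in males. Capitals mark an E-box (CACGTG), 161 bases before the start, and 2 CCAAT boxes on the minus strand, 71 and 17 bases before it.
Elovl5 promoter: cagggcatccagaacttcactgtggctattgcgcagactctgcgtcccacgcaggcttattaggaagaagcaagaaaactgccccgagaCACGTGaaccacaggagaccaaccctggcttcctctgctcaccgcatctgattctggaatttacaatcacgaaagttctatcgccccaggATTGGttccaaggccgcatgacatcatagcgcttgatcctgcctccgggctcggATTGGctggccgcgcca
RefSeq windows were at hand for 5 of the 9 genes (*Elovl1*, *Elovl2*, *Elovl5*, *Elovl6* and *Fads2*), with an additional window each for *Elovl1* and *Elovl2*. Both strands of the 250 bases before each start were searched. The E-box was found in *Elovl5* among these 5, and 6.02% of 32851 windows of all genes held it. The CCAAT box (CCAAT) was found in *Elovl1* and *Elovl5*, and 33.8% of all windows held it. The letters of a sterol regulatory element (TCACNCCAC, 1.05% of all windows), a STAT site (TTCNNNGAA, 7.02%) and a consensus estrogen response element (0.0639%) were in no window of the 5 genes.

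*Elovl2* encodes the elongase of the longest polyunsaturated chains, upstream of docosahexaenoic acid. It was at 542, 573 and 534 CPM in MWT and at 762, 944, 725 and 803 CPM in MKO. The groups did not overlap, and the log2 fold change was 0.56 (95% interval 0.229 to 0.885, adjusted p = 0.0992). It was past the threshold with DESeq2 (adjusted p = 0.0176) and with only the male groups in the fit (edgeR adjusted p = 0.0275). In females it was at 772, 560.4 and 567 CPM in FWT and at 516, 613, 781, 652 and 569 CPM in FKO. The female groups overlapped throughout, with a log2 fold change of -0.02 (95% interval -0.325 to 0.294, adjusted p = 0.964).

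*Fads1* and *Fads2*, the front-end desaturases of the same route, lie next to each other on chromosome 19 (*Fads2* from 10062765 to 10101746 on the minus strand, *Fads1* from 10182888 to 10196877 on the plus strand). *Fads2* was at 651, 730.1 and 641 CPM in MWT and at 1305, 1509.6, 883 and 1158 CPM in MKO, a log2 fold change of 0.85 (adjusted p = 0.216). *Fads1* was at 318, 430.3 and 374 CPM in MWT and at 565, 563, 498 and 536 CPM in MKO, a log2 fold change of 0.53 (adjusted p = 0.354). For both genes the MKO mice lay above the MWT mice without overlap and without a call. In females *Fads1* was at 734, 559 and 546 CPM in FWT and at 257, 402, 614, 579 and 402 CPM in FKO. *Fads2* was at 1294, 847 and 866 CPM in FWT and at 383, 650.3, 1202, 1060.5 and 811 CPM in FKO. FKO 1 was the lowest mouse of all 15 for both genes, and the log2 fold changes in females were -0.44 for *Fads1* (adjusted p = 0.227) and -0.29 for *Fads2* (adjusted p = 0.572). Without FKO 1 they were -0.30 for *Fads1* (adjusted p = 0.328) and -0.11 for *Fads2* (adjusted p = 0.824). The difference of the effects (females minus males) was -0.97 for *Fads1* (95% interval -1.63 to -0.318, adjusted p = 0.153) and -1.14 for *Fads2* (95% interval -1.99 to -0.283, adjusted p = 0.214). Both intervals lay below 0 before adjustment, and neither gene was past the threshold. Without FKO 1 these differences were -0.83 for *Fads1* (adjusted p = 0.0911) and -0.96 for *Fads2* (adjusted p = 0.154).

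*Elovl1* encodes the broadly expressed elongase of very long saturated chains. It was at 25.8, 23.9 and 23.1 CPM in FWT, at 14.7, 22.4, 29.9, 24.3 and 26.2 CPM in FKO, at 29.4, 27.6 and 24.7 CPM in MWT and at 31.4, 38.2, 28.3 and 27.7 CPM in MKO. Both knockout groups overlapped with their controls. The log2 fold change was -0.05 in females (95% interval -0.405 to 0.309, adjusted p = 0.899) and 0.21 in males (95% interval -0.169 to 0.579, adjusted p = 0.722). Without FKO 1 the estimate in females was 0.08 (adjusted p = 0.757).

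*Elovl3* encodes the elongase whose product range overlaps that of ELOVL1. It was at 6.66, 1.94 and 5.61 CPM in FWT and at 31.2, 32.1, 54.0, 56.1 and 80.5 CPM in FKO. Every FKO mouse lay above every FWT mouse, and the log2 fold change was 3.41 (95% interval 2.40 to 4.43, adjusted p = 0.000355). In males it was at 189, 104 and 66.2 CPM in MWT and at 69.0, 72.3, 151 and 75.7 CPM in MKO. The male groups overlapped, with a log2 fold change of -0.38 (95% interval -1.25 to 0.498, adjusted p = 0.801). The difference of the effects (females minus males) was 3.79 (95% interval 2.49 to 5.09, adjusted p = 0.00202), where 1.94% of all tested genes were called, and *Elovl3* was the only 1 of the 9 genes called there. Its calls in females and in the difference between the sexes were kept with every mouse left out in turn. The fold change in males pointed up without MWT 1 (log2 fold change 0.11).

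Between wild-type females and males, 1 of the 9 genes was called, where 4.87% of all tested genes were called. *Elovl3* was lower in females by a log2 fold change of -4.65 (95% interval -5.77 to -3.53, adjusted p = 1.94e-05), with no overlap. Groups did not overlap for 5 of the 9 genes, where 30.1% of all tested genes did not overlap with 3 mice against 3. Besides *Elovl3*, these were *Elovl5*, *Fads1*, *Fads2* and *Scd2*, all higher in FWT. Their log2 fold changes were 0.74 for *Elovl5* (adjusted p = 0.212), 0.71 for *Fads1* (adjusted p = 0.116), 0.57 for *Fads2* (adjusted p = 0.373) and 0.19 for *Scd2* (adjusted p = 0.587). *Fads1* was past the threshold in the fit without FKO 1 (adjusted p = 0.0228). *Scd1* gave -0.06 (95% interval -0.980 to 0.869, adjusted p = 0.970).

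Between knockout females and males, none of the 9 genes was called by edgeR or by DESeq2, where 0.272% of all tested genes were called, and 7 of 9 had an unadjusted p under 0.05, which held for 17.5% of all tested genes. All 9 estimates were lower in FKO, with a median log2 fold change of -0.417 beside 0.0114 over all tested genes. The groups overlapped for every gene, where 5.22% of all tested genes did not overlap. The lowest estimates were -0.89 for *Scd1* (adjusted p = 0.222) and -0.86 for *Elovl3* (adjusted p = 0.244). Without FKO 1, the estimate for *Fads1* went from -0.26 to -0.11 (adjusted p = 0.801) and that for *Fads2* from -0.56 to -0.38 (adjusted p = 0.459). This comparison uses other mice than the comparison of wild types. It shares the FKO mice with the knockout comparison in females and the MKO mice with that in males.

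The order of the group means shows where neighbours lie apart. For *Elovl3* it was FWT, FKO, MKO and MWT from low to high, and the single step past the threshold was the first (FWT to FKO). For *Elovl5* and *Elovl6* it was MWT, FWT, FKO and MKO, with no step between neighbours past the threshold. For *Scd1* it was FWT, MWT, FKO and MKO, again with no such step. MWT was lowest and MKO highest for *Elovl2*, *Elovl5*, *Elovl6*, *Fads2* and *Scd2*, and *Fads1* was highest in FWT. Across sex and genotype, 1 of 9 genes was called between FKO and MWT, where 2.61% of all tested genes were called, and it was *Elovl5*, higher in FKO by a log2 fold change of 1.22 (adjusted p = 0.0294). That call was lost with only the groups compared (adjusted p = 0.0862), and it was kept in 9 of 15 fits that left out a mouse, with the highest adjusted p of 0.131 without MWT 3. *Elovl3* did not pass there (log2 fold change -1.24, adjusted p = 0.111). Between MKO and FWT, 3 of 9 were called, where 7.41% of all tested genes were called. These were *Elovl3* (19.3-fold, adjusted p = 4.22e-05), *Scd1* (3.84-fold, adjusted p = 0.0119) and *Elovl5* (2.01-fold, adjusted p = 0.0463), all higher in MKO. The call of *Elovl5* was lost with scaling by total counts (adjusted p = 0.0683), and it was kept in 5 of 15 fits that left out a mouse, with the highest adjusted p of 0.210 without FWT 3. The call of *Scd1* was lost without FWT 1 (0.0559) or FWT 3 (0.0641), and that of *Elovl3* was kept in all of these fits.

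Mice of the same group differed from each other, and some members differed together. For each of 36 pairs of genes, the deviations from the group means over the 15 mice were correlated (log2 CPM, permutation within groups, two-sided, adjusted over the 36 pairs). By Pearson's r, 7 pairs were past an adjusted p of 0.05, and 4 of these also by Spearman's rho. Those 4 were *Fads1* with *Fads2*, *Elovl2* with *Fads1*, *Elovl2* with *Fads2* and *Elovl1* with *Fads2*. Of the 7, 6 joined genes of the polyunsaturated route and *Elovl1*. The strongest was *Fads1* with *Fads2* (r = 0.93, permutation p = 0.00012, adjusted 0.00432, rho = 0.88, permutation p = 0.00029), and r was 0.81 without the 2 mice farthest from the median of *Fads1*. *Elovl2* followed *Fads1* (r = 0.79) and *Fads2* (r = 0.84), *Elovl5* followed *Fads1* (r = 0.87) and *Elovl1* followed *Fads2* (r = 0.88) and *Elovl2* (r = 0.71). For these 5 pairs the adjusted p of r was between 0.00594 and 0.0449, rho was between 0.62 and 0.83, and the permutation p of rho was between 0.00162 and 0.0268. After adjustment the permutation p of rho was between 0.0292 and 0.121. FKO 1 was the lowest FKO mouse for all 5 genes. Without the 2 farthest mice r was between 0.496 and 0.794 for the 5 pairs, and without FKO 1, a setting chosen after seeing the data, it was between 0.658 and 0.845, with 0.85 for *Fads1* and *Fads2*. The other pairs among these 5 genes, which had not passed, went without FKO 1 from 0.61 to 0.24 (*Elovl1* and *Elovl5*), from 0.75 to 0.39 (*Elovl1* and *Fads1*), from 0.69 to 0.58 (*Elovl2* and *Elovl5*) and from 0.75 to 0.57 (*Elovl5* and *Fads2*). In the same order, r was 0.0441, 0.219, 0.433 and 0.460 without the 2 farthest mice.

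The seventh pair was *Elovl6* with *Scd1* (r = 0.78, permutation p = 0.00873, adjusted 0.0449, rho = 0.68, permutation p = 0.0240, adjusted 0.121), which did not pass by rho. Its r was 0.56 without the 2 farthest mice and 0.86 without FKO 1. *Elovl6* did not follow the polyunsaturated route, with r between -0.111 and 0.0328 for its pairs with *Elovl2*, *Elovl5*, *Fads1* and *Fads2*. *Elovl3* went against *Elovl6* (r = -0.69, permutation p = 0.0132, adjusted 0.0596), which missed the threshold. Over the 36 pairs, 30 had a positive r, with a median of 0.245. Library preparation, depth and RNA quality are shared by all genes of a mouse, and their part in these correlations was not tested.

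**Figure D3:**
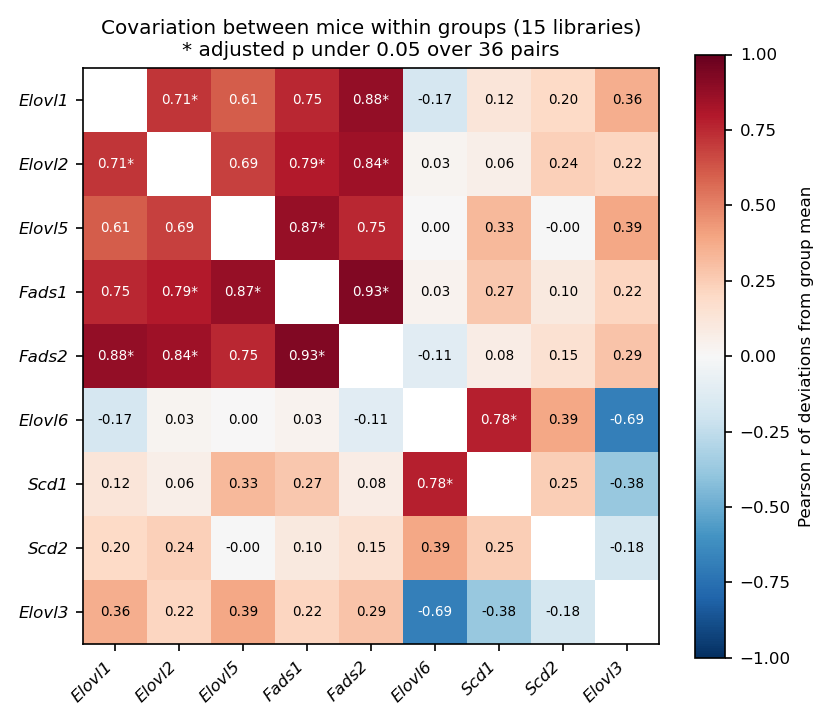
Pearson's r between the deviations of 15 mice from their group means (log2 CPM) for every pair of the 9 genes, red for positive and blue for negative values, with an asterisk at an adjusted p under 0.05. A block of Elovl1, Elovl2, Elovl5, Fads1 and Fads2 is red with r from 0.61 to 0.93, and Elovl6 with Scd1 (0.78) stands outside it. In the block r was 0.24 to 0.85 without FKO 1 and 0.0441 to 0.807 without the 2 farthest mice of each pair.

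**Figure D4:**
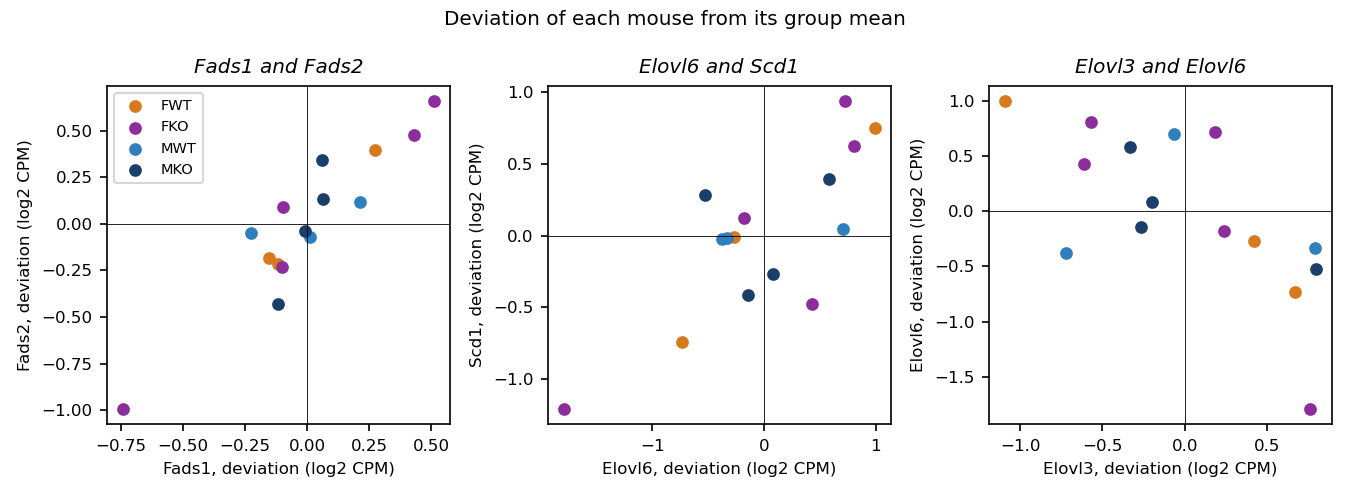
Deviation of each mouse from the mean of its group (log2 CPM) for Fads1 against Fads2, Elovl6 against Scd1 and Elovl3 against Elovl6, coloured by group. The first 2 panels rise with r of 0.93 and 0.78, FKO 1 lies at the lower left of the first and FKO 5 at the lower left of the second, and the third panel falls with r of -0.69.

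As a description with no test, the genes most like each member over all 15 libraries were looked for among 11631 genes whose log2 CPM averaged 1 or more, by Pearson's r of log2 CPM, which holds the group differences too. *Elovl6* was most like *Acaca*, acetyl-CoA carboxylase, which commits acetyl-CoA to fatty acid synthesis (r = 0.93), and *Rpia* (r = 0.91). *Scd1* was most like *Chrna4* (r = 0.94) and *Me1*, malic enzyme, a source of NADPH for that pathway (r = 0.93). *Fads1* was most like *Mvd*, an enzyme of cholesterol synthesis (r = 0.90), and *Mvd* was also second for *Fads2* (r = 0.91) after *Sh3bp5l* (r = 0.92). *Elovl5* was most like *Pltp*, the phospholipid transfer protein (r = 0.96). *Elovl3* was most like *Aox1*, an aldehyde oxidase (r = 0.95), and *Gm3839* (r = 0.94). For *Elovl1* they were *Timm50* and *Pef1*, for *Elovl2* *Pls1* and *Armcx2* and for *Scd2* *Rab13* and *Ptpn14*, with r between 0.85 and 0.96.

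The partners of these enzymes were read from lists of the pathway. Of the 6 genes that complete the elongation cycle, *Hsd17b12* rose in FKO (log2 fold change 0.50, adjusted p = 0.00823) and none was called in males. Of 3 genes that supply electrons to the desaturases (*Cyb5a*, *Cyb5b* and *Cyb5r3*) none was called in either sex, with estimates between -0.05 and 0.36. Of 8 further members of the families (*Elovl4*, *Elovl7*, *Scd3*, *Scd4*, *Fads3*, *Fads6*, *Degs1* and *Degs2*), 6 were tested and none was called in either sex. *Scd3* and *Scd4* were under 2 CPM in every group mean and gave log2 fold changes of 1.42 (adjusted p = 0.167) and 2.18 (adjusted p = 0.0819) in males, with the same uncertainty of shared reads as *Scd2*.

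Of 7 genes of fatty acid synthesis (*Acly*, *Acaca*, *Acacb*, *Fasn*, *Acss2*, *Me1* and *Slc25a1*), *Me1* rose in MKO (log2 fold change 1.65, adjusted p = 0.00904) and none was called in females. All 7 estimates were above 0 in males, with a median of 1.28. *Fasn*, fatty acid synthase, gave 1.54 in males (adjusted p = 0.135) and *Acly*, ATP citrate lyase, gave 1.40 (adjusted p = 0.0695). In females the median was 0.289, and *Me1* gave 0.98 (adjusted p = 0.0542). For none of the 7 was the effect shown to differ between the sexes.

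Of 5 acyl-CoA synthetases, which activate fatty acids, *Acsl3* (0.72, adjusted p = 0.0218) and *Acsl5* (0.77, adjusted p = 0.0269) rose in MKO, none was called in females, and *Acsl3* was called in the difference between the sexes (-0.91, adjusted p = 0.0259). Of 6 acyltransferases, *Gpam*, which starts glycerolipid synthesis, rose in MKO (1.42, adjusted p = 0.0252), and none was called in females. Of 6 genes of peroxisomal beta-oxidation, which shortens very long chains, *Scp2* rose in FKO (1.60, adjusted p = 4.47e-06) and *Abcd2* rose in MKO (1.62, adjusted p = 0.0151). Both were called in the difference between the sexes, *Scp2* at 1.74 (adjusted p = 8.09e-05) and *Abcd2* at -2.28 (adjusted p = 0.00631). *Scp2*, which like *Elovl3* rose in FKO and not in MKO, was at a mean of 1252 CPM in FWT and 4362 CPM in MWT.

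Of 10 lipogenic regulators, *Pparg* rose in both sexes, at 1.32 in females (adjusted p = 0.00779) and 1.46 in males (adjusted p = 0.0110). *Srebf2*, the regulator of cholesterol synthesis, fell in FKO (-0.79, adjusted p = 0.00913). *Srebf1*, whose product drives transcription of many lipogenic genes, gave -0.35 in females (adjusted p = 0.339) and 0.65 in males (adjusted p = 0.213). Neither *Mlxipl* nor *Nr1h3* was called in either sex.

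**Figure D5:**
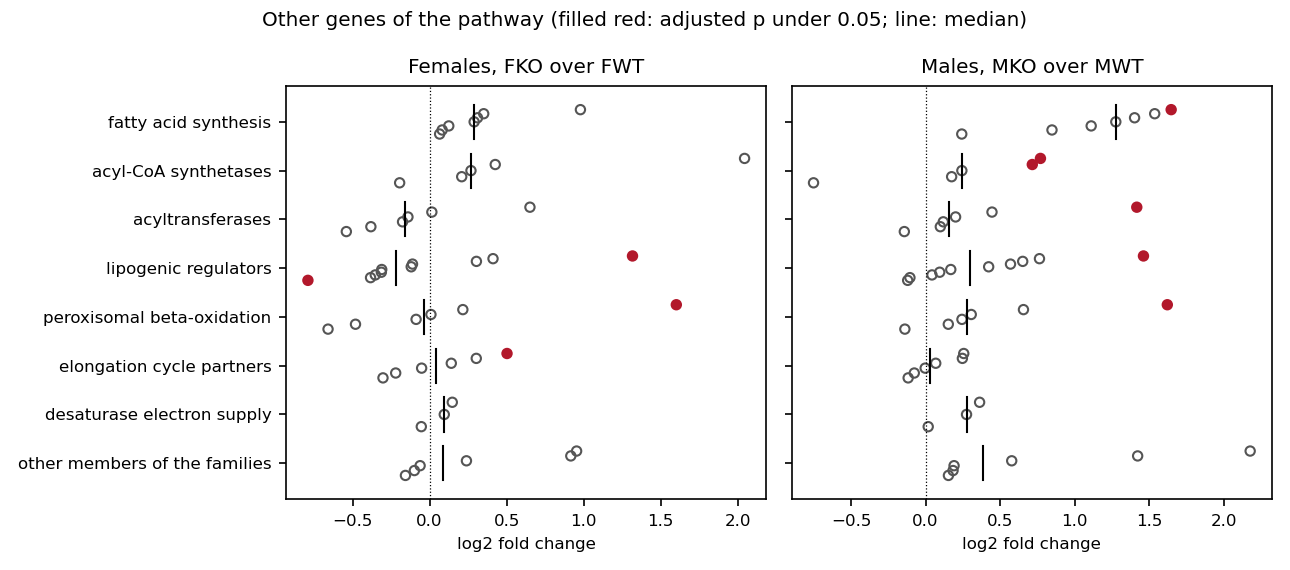
Log2 fold change of each tested gene of the other lists, by list, in females (FKO over FWT) and males (MKO over MWT). Filled red circles have an adjusted p under 0.05 and vertical lines are medians, which for fatty acid synthesis are 0.289 in females and 1.28 in males.

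Markers of other cells of the liver were read beside these results. Of 6 adipocyte markers, which matter because fat cells carry much *Scd1*, *Cfd* was tested and rose in MKO (log2 fold change 5.86, adjusted p = 0.00701). The 6 markers summed to between 0.0733 and 0.111 CPM in MWT, 0.918 and 9.40 CPM in MKO, 0.0458 and 0.155 CPM in FWT and 0.272 and 1.10 CPM in FKO. Nearly all of this was *Cfd*, with 9.32 CPM in MKO 3 and at most 1.95 CPM in the other MKO mice. *Lep* was at 0 in all 15 mice, and *Adipoq*, *Plin1*, *Retn* and *Ucp1* were each under 0.1 CPM in every mouse. *Scd1* and *Elovl5* were called in males beside these values. Of 4 cholangiocyte markers, *Krt19* and *Epcam* rose in MKO (adjusted p = 0.0307 and adjusted p = 0.0300), at group means of 0.542 to 1.41 CPM. *Krt7* and *Sox9* were not called in males. The estimates pointed up for 3 of the 4, and *Sox9* had a lower mean in MKO (1.57 CPM) than in MWT (1.88 CPM). The part of bile duct cells in the rise of *Elovl5* and *Scd1* was not tested. No marker of macrophages, stellate cells, endothelial cells or lymphocytes was called in either sex, and the 4 markers of pancreatic acinar cells summed to at most 0.0361 CPM. Of 3 erythroid genes, *Alas2* rose in FKO (2.56, adjusted p = 9.34e-06) beside *Elovl3*, and *Hba-a1* and *Hbb-bs* were not called in either sex. The part of *Alas2* in the rise of *Elovl3* was not tested.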

How the data were processed

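Liver RNA of 15 mice was depleted of ribosomal RNA and sequenced as paired-end reads by the authors, and libraries with few reads were sequenced again (which ones is not given in the sources used here). The submitters' processing notes name Trimmomatic 0.36, STAR, HTSeq 0.6.0 and GRCm38. The deposited table holds whole-number counts per Ensembl gene with no normalization. Strand setting and annotation release are not given in the sources used here. Symbols were taken from the table, and positions and exon lengths from GENCODE M21.

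Counts were fitted with edgeR 4.0.16 in R 4.3.3 (filterByExpr, TMM, a mean per group, all libraries, quasi-likelihood F test). Standard errors and 95% intervals were derived from the F statistic. Log2 CPM used a prior count of 2. Replicates of a group differed by a chi-square per gene of at least 23.5, where a repeated library would give about 1. Correlations used 100000 permutations. The code was tested on simulated data. The 9 genes, the lists and the naming rule (up to 3 called genes per list and contrast) were chosen with earlier results of these data known. A few genes that the naming rule covers are not reported here. Alternatives were DESeq2 1.42.0, other scaling and filters, a log2 fold change of at least 1.5, fewer groups, a replicate block, longest transcripts and each mouse left out.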

Additional observations from a re-analysis of the deposited data

Results flagged for a closer look

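MKO 3 stood far from the other 3 MKO mice for *Elovl3*, at 151 CPM where the others lay between 69.0 and 75.7 CPM. The level lies within the range of the MWT mice. Of 18 groups of 4 or 5 mice tested in this way, chance flags about 1 in 20. MKO 3 was also the mouse with the highest *Cfd* (9.32 CPM) and *Elovl5* (1219 CPM).

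The knockout effect on *Elovl3* differed between the sexes, by 3.79 on the log2 scale (females minus males, edgeR adjusted p = 0.00202). FKO mice lay above FWT mice in 5 of 5 cases, and MKO and MWT mice overlapped.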

How the results depend on the processing

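*Elovl3* kept its calls in females, between wild types and in the difference between the sexes under every alternative run. *Elovl5* in males kept its call under all alternatives but the fit without MWT 3. The number of genes called of 9 moved as follows. With no filter on low counts it was 2 in females (*Scd1* added), 3 in males (*Elovl6* added), 2 in the difference between the sexes (*Elovl5* added) and 3 between FKO and MWT (1 before). With DESeq2 it was 3 in males (*Elovl2* added) and 2 in the difference between the sexes. With only the groups compared in the fit it was 6 in males (*Elovl2*, *Elovl6*, *Fads1* and *Fads2* added), 2 between wild types (*Fads1* added) and 0 between FKO and MWT. With a minimum log2 fold change of 1.5 it was 0 between FKO and MWT and 2 between MKO and FWT (3 before), and 2 there also with scaling by total counts. With each mouse left out in turn it ranged from 1 to 2 in females, from 0 to 3 in males (0 without MWT 3), from 1 to 2 between wild types, from 0 to 3 between FKO and MWT and from 1 to 3 between MKO and FWT (1 without FWT 3). The cause of these moves was not tested. Some of these fits use fewer mice or another number of genes than the main fit. The share of all tested genes called in each of these fits is not given here. It can differ from the share in the main fit.

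Fold changes that turned direction were all uncalled. Leaving out single mice gave log2 ranges of -0.148 to 0.081 for *Elovl1* in females, -0.11 to 0.15 for *Elovl2* in females, -0.73 to 0.11 for *Elovl3* in males, -0.0429 to 1.07 for *Elovl6* between wild types, -0.418 to 0.0163 for *Elovl6* between knockouts, -0.51 to 0.24 for *Scd1* between wild types and -0.0744 to 0.112 for *Scd2* between FKO and MWT. *Elovl2* in females was 0.014 with no filter and 0.012 with the replicate block. CPM per kilobase with the longest transcript moved for *Elovl1*, *Fads1* and, in males, *Elovl5*.

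The replicate numbers of the labels did not pair the mice. Of 19 same-numbered pairs of libraries, 1 had a correlation of deviations over 0.1 (range -0.195 to 0.140), and 1 of 15 libraries correlated best with its own number. With the replicate number as a block, 3 of 9 genes were called in females (*Elovl3*, *Elovl6* and *Scd1*), 3 in males (*Elovl5*, *Elovl6* and *Scd1*) and 2 between MKO and FWT (*Elovl5* not called, adjusted p = 0.112). Between FKO and MWT the number stayed at 1, with *Elovl6* in place of *Elovl5* (adjusted p = 0.0719). For this fit too, the share of all tested genes called is not given here.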

Other observations

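*Elovl3* is known to follow the daily cycle, and lipogenic genes follow feeding, so 2 further lists were read. Of 12 clock genes, *Per3* fell in FKO (log2 fold change -0.59, edgeR adjusted p = 0.0126), and none was called in males or in the difference between the sexes. The median log2 fold change of the 12 was -0.305 in females and -0.0557 in males. *Arntl* gave -0.21 in females and 0.69 in males, and *Dbp* gave -0.29 and -0.04, none of them past the threshold. Of 10 genes that respond to fasting or feeding, *Pdk4* (1.51, edgeR adjusted p = 0.0156) and *Pnpla3* (4.11, edgeR adjusted p = 0.0486) rose in MKO, and none was called in females. *Pnpla3* was at a mean of only 0.825 CPM in MWT. In MKO it lay between 5.99 and 35.8 CPM, with a median of 7.73 CPM. *Pck1*, of gluconeogenesis, gave -0.71 in females and -0.72 in males, neither past the threshold. The hour of collection and the feeding state are not given in the sources used here, and their part in the levels of the elongases and desaturases was not tested.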
